A study of Homo sapiens with 8 samples.

Results

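The genes described here are 41 members of the program that hypoxia-inducible factors (HIF) switch on, together with the enzymes of glycolysis, read in A-498, a long-established cancer cell line of human kidney. They were chosen as a list of named HIF subunits, HIF targets and glycolysis genes, matched by Entrez identifier to rows of the count table. No value entered that rule, but earlier results of these data were known when the list was made. All 41 were found among the 28395 genes of the table, and all 41 were among the 14040 genes abundant enough to be tested. By role they were 5 HIF subunits and oxygen sensors, 5 genes of acid handling and secreted signals, 8 other hypoxia targets, 2 lipid droplet genes, 3 controllers of pyruvate and phosphofructokinase flux, 3 transporters and 15 glycolysis enzymes.

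Polyadenylated RNA of 4 A-498 lines was sequenced in duplicate, giving 8 libraries. The control lines, numbered 1 and 2, were labelled wild type and carried non-targeting sgRNA-1 and non-targeting sgRNA-2, and the lines labelled KO-1 and KO-2 were labelled ANXA4 knockout and carried ANXA4 sgRNA-1 and ANXA4 sgRNA-2. Cells for all libraries were seeded at equal numbers and grown for 24 hours at subconfluence in the same serum-containing medium. They were kept in air with added CO2, so none was a hypoxic culture. Each guide was present in 1 line only, so a guide and a line cannot be told apart, and the labels do not say whether a line was a clone or a pool, or whether the replicates were separate cultures. If they were not, the p-values measure only technical spread.

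Under normal oxygen, prolyl hydroxylases mark the HIF alpha subunits for the VHL protein, which sends them for degradation. In kidney cancer cells without working VHL, the alpha subunits persist and pair with ARNT, and the pair binds short ACGTG or GCGTG motifs near its targets. Those targets shift cells towards glucose uptake, glycolysis, lactate export, acid secretion and blood vessel signals.

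The deposited values were read counts divided by 1 size factor per library, and a value below is such a normalised read count unless another scale is named. Library depth was 15784890 to 22631588 reads. ANXA4, the targeted gene, held 2821, 3614, 3858 and 6773 in the control libraries, 236 and 234 in the line labelled KO-1, and 3433 and 4142 in the line labelled KO-2. It was lower in KO-1 than in the control lines (log2 difference -4.10 ± 0.22 SE, limma adjusted p = 5.88e-05) but not in KO-2 (-0.10 ± 0.22, limma adjusted p = 0.818), so every direction below refers to the labels. Kidney markers were present (PAX8 at 2987 to 4476), whereas LRP2 stood at 0 to 1.13 and EPCAM at 3.13 to 9.46. Of the markers of other cell types, summed fibroblast markers reached 553 to 1434 in control and 180 to 515 in KO-labelled libraries, nearly all of it COL1A1, with LUM at 0 throughout. Endothelial markers summed to 30.1 to 73.8 and 23.8 to 53.9, with CDH5 at 0, and immune markers to 1821 to 4300 and 3220 to 4481, nearly all CD68, with CD3E at 0. The share of mitochondrial reads was 4.67% to 13.8% and was highest in replicate 2 of KO-2. Whether it had a part in any result was not tested.

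The motif was looked for in the 250 bases before the transcription start of each gene, in RefSeq sequences of GRCh38.p14, using the first start listed per gene. A sequence was matched for 35 of the 41 members. ACGTG was found on either strand in 15 of these 35 (42.9%), against 18.7% of the 27303 promoters in the table, and GCGTG in 14 (40.0%), against 31.9%. A palindromic CACGTG was counted on both strands. The 27303 promoters were not limited to the genes tested here, and the members were listed as HIF and glycolysis genes. The shares therefore compare unlike sets. Such a match is a description of letters, not evidence of binding. The 5 promoters below, picked after values were known, are shown because ANGPTL4, HK2 and P4HA1 were the 3 members higher in replicate 2 (given further on) that held ACGTG, LDHA held the motif most often among the 35, and CA9 is a classical HIF target that was nearly silent here. Of the members higher in replicate 2, 6 had a promoter in the table, and ADM, P4HA2 and EPAS1 held no ACGTG in this window. Capitals mark ACGTG or its reverse complement CACGT, and each line runs 5′ to 3′ along the gene.
ANGPTL4: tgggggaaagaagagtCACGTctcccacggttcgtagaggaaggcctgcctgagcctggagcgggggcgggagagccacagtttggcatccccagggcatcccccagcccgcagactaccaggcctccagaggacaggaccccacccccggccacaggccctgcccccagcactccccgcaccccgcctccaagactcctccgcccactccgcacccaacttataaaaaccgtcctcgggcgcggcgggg
HK2: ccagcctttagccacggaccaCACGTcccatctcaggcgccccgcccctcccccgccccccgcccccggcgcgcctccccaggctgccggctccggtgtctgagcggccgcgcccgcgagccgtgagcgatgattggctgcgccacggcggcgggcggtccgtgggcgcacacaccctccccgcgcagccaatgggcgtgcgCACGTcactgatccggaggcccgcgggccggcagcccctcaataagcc
P4HA1: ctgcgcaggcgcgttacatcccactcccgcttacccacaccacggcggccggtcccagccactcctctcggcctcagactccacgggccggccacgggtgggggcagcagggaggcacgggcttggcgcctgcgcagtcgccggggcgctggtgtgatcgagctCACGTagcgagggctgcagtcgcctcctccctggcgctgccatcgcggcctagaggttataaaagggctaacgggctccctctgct
LDHA: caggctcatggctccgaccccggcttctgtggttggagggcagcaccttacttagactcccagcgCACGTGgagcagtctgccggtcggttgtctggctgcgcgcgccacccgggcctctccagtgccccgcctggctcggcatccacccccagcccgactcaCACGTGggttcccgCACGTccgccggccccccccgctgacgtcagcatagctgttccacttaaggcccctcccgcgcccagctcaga
CA9: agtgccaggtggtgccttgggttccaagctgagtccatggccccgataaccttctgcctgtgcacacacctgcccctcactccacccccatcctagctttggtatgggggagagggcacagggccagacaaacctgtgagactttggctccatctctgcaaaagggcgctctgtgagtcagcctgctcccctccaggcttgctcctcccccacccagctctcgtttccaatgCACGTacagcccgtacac
These stretches lie at chr19:8363905-8364154, plus strand for ANGPTL4, chr2:74833877-74834126, plus strand for HK2, chr10:73096867-73097116, minus strand for P4HA1. The LDHA stretch is chr11:18394313-18394562, plus strand, and that of CA9 is chr9:35673678-35673927, plus strand. In LDHA, 5 motif starts fell between 185 and 73 bases before the transcription start, and in CA9 the single motif began 18 bases before it.

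Most glycolysis enzymes stood high among the members, and hypoxia targets were spread over the whole range. Per kilobase of exon, GAPDH (35515 ± 8282, SD, n = 8 libraries) stood first of the 41, followed by PKM, the pyruvate kinase (19044 ± 2082), and ALDOA, an aldolase (16724 ± 2237). ENO1, an enolase, and LDHA, which makes lactate, came next, so the 5 highest members were all glycolysis enzymes. PKM exceeded ENO1 (15552 ± 1674) in 8 of 8 libraries, but PKM exceeded ALDOA, and ALDOA exceeded ENO1, in only 6 of 8, so the place of ALDOA between them was not the same in every library. Exon lengths came from GENCODE v29 and the annotation used in counting is not given in the sources used here, so the per-kilobase levels are approximate. Of the hypoxia targets outside the glycolysis enzymes, the transporter SLC16A3 ranked 9, PLIN2 11, SLC2A1 12, NDRG1 14, CA12 15 and VEGFA 17. By contrast, CA9, PDK1 and ANKRD37 ranked 39, 40 and 41. PDK1 had the longest exon length of the 41 (14253 bases), which lowers its level per kilobase. Before division by length it held 106 to 143, whereas CA9 held 2.07 to 24.8 and ANKRD37 3.62 to 14.5. The enzymes HK2, ALDOC and ENO2 also ranked low, at 30, 34 and 35.

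Isoform pairs among the members kept the same order in all 8 libraries. Other isoforms, such as HKDC1, PFKM and LDHB, were not compared per kilobase. Per kilobase, HK1 exceeded HK2 by a median of 3.51-fold, PFKP exceeded PFKL 3.68-fold, ALDOA exceeded ALDOC 155-fold and ENO1 exceeded ENO2 193-fold. Of the glucose transporters, SLC2A1 exceeded SLC2A3 by a median of 38.1-fold per kilobase. Of the membrane carbonic anhydrases, which acidify the cell surroundings, CA12 exceeded CA9 147-fold in the median library. CA9 held 23.9, 18.7, 12.9 and 14.7 in the control libraries, 16.4 and 2.07 in KO-1 and 24.8 and 21.7 in KO-2, which was at most 26 reads. HIF1A exceeded EPAS1, which encodes HIF-2 alpha, by a median of 2.22-fold per kilobase, and EPAS1 exceeded ARNT 4.98-fold. These are RNA levels, and HIF protein was not measured.

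**Figure D1:**
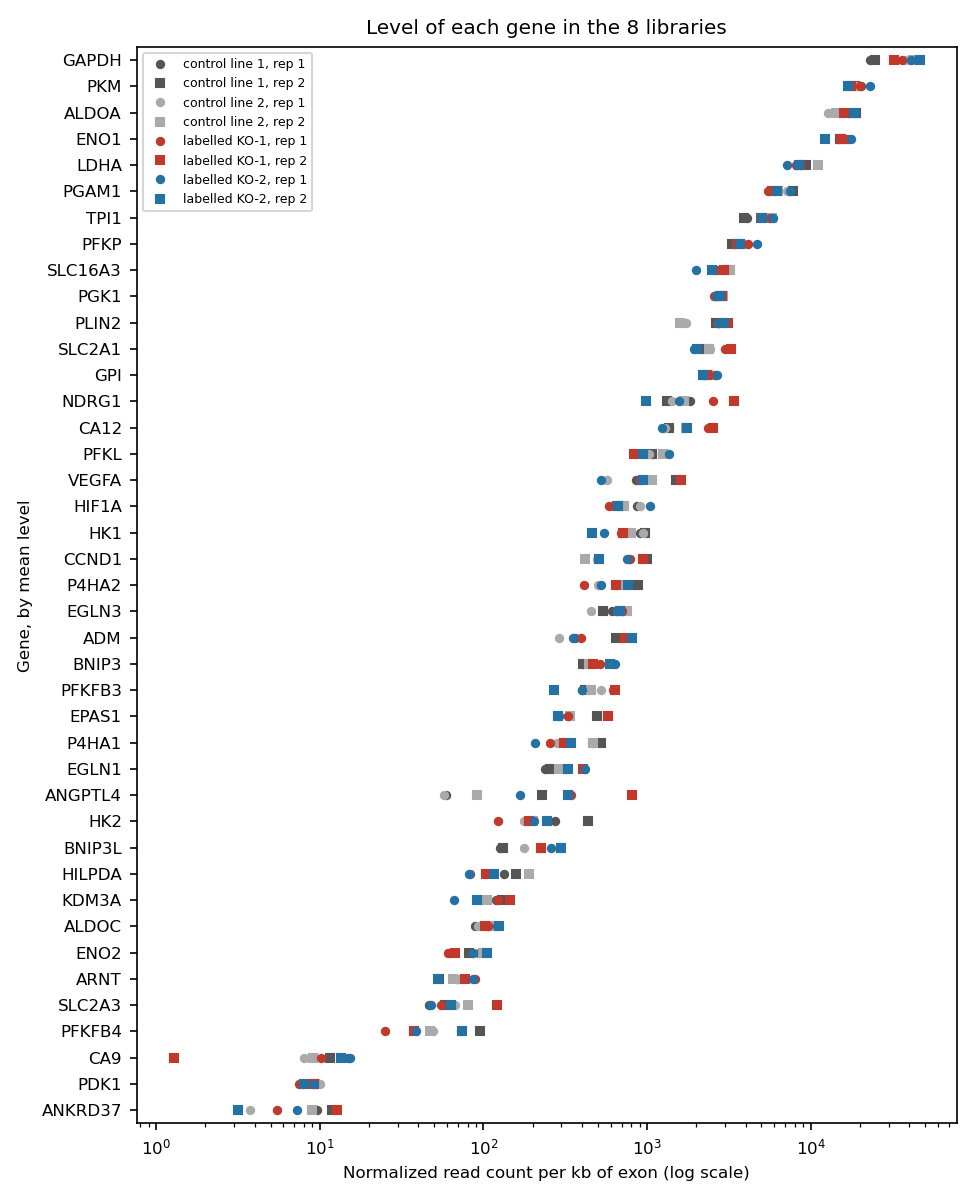
Normalised read count per kilobase of exon (log axis) for the 41 members, with 1 point per library and members ordered by their mean. GAPDH is highest, the 5 highest members are all glycolysis enzymes, and CA9, PDK1 and ANKRD37 are lowest.

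By role, the enzymes also had the lowest median variation among libraries. Single enzymes varied more, with coefficients of variation of 40.2% for HK2, 24.8% for HK1 and 23.3% for GAPDH. PGK1, which makes the first ATP of glycolysis, ranged from 12736 to 14564, a coefficient of variation of 5.24%, the lowest of the 41. The median coefficient was 12.97% over the 15 enzymes and 39.7% over the 5 genes of acid handling and secreted signals. ANGPTL4, a secreted inhibitor of lipoprotein lipase, had the highest at 95.2%. The 41 members together took 2.05% to 2.40% of all reads, and the 15 enzymes alone took 1.62% to 2.03%. Of the members, 19 overlapped another RefSeq gene, and 16, 9 of them glycolysis enzymes, had a pseudogene of the same name. Strand use in counting is not given in the sources used here, so reads may be split or shared in these genes.

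**Figure D2:**
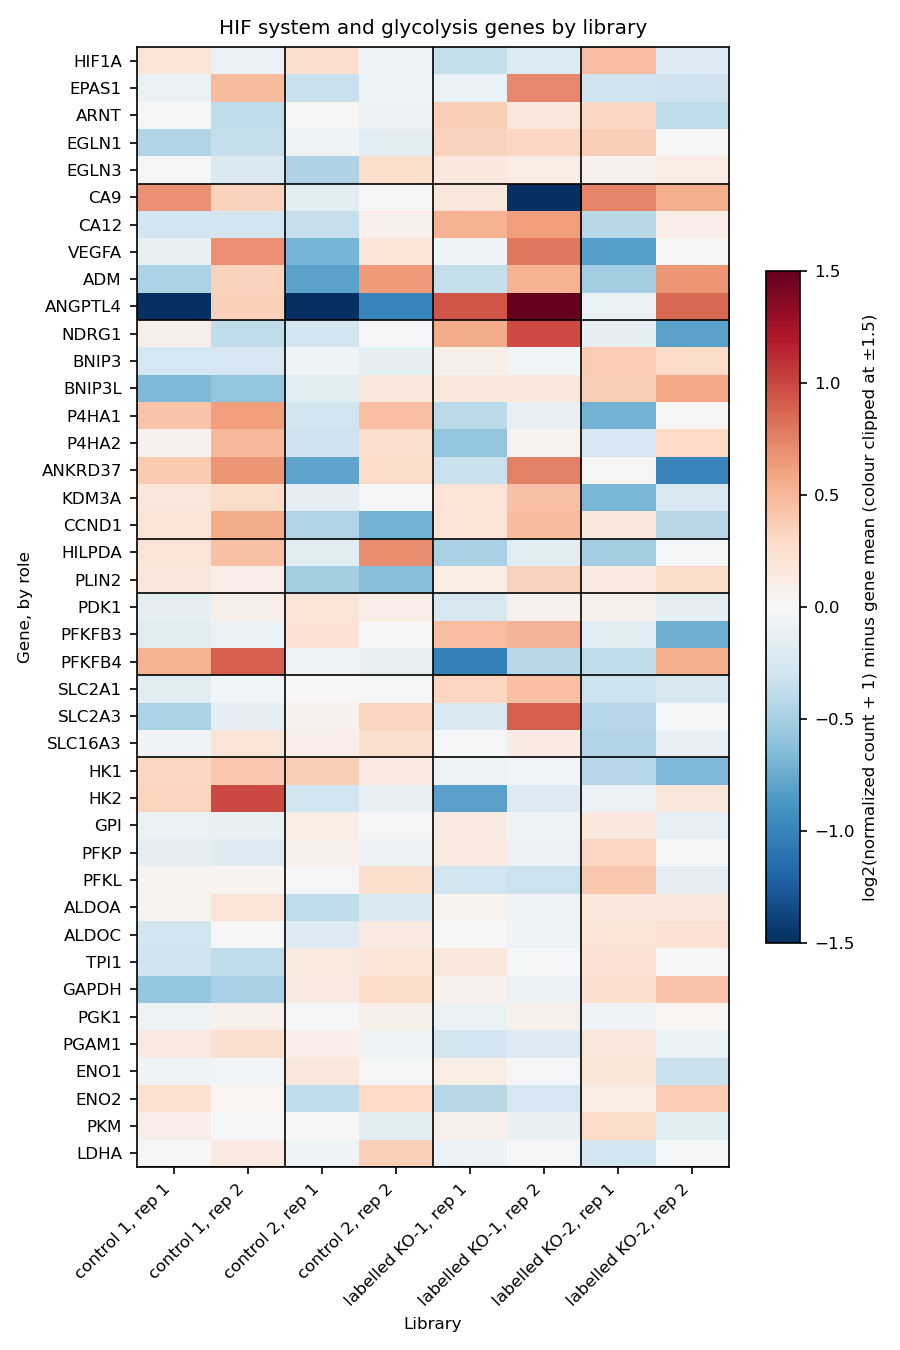
Log2(normalised read count + 1) of each member (rows, by role) in each of the 8 libraries (columns), minus the member's mean over libraries. Colours are clipped at 1.5 log2 units either way, and ANGPTL4 and CA9 reach that limit, whereas most glycolysis enzymes other than HK1, HK2 and GAPDH are pale.

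The first comparison asked whether the program differed between the 4 libraries labelled knockout and the 4 controls. No member was called by limma, with the 2 libraries of a line treated as correlated, against 0.235% of all genes tested, and blocking on the replicate number again gave 0 (0.264% of all genes). At an unadjusted p under 0.05 there were 6 members (14.6%, against 11.5% of all genes), a share near the background. The median log2 difference of the 41 was 0.03, against 0.00 over all genes, with 22 positive and 19 negative. For 31 of the 41 (75.6%, against 68.4% of all genes) the 95% interval of the difference lay within 2-fold either way, a summary added after the results were seen, and this held for 14 of the 15 glycolysis enzymes. PGK1 showed the narrow end of this range, at -0.03 (95% interval -0.33 to 0.28).

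The largest positive differences were those of ANGPTL4, BNIP3L and EGLN1. ANGPTL4 held 110, 432, 108 and 171 in the control libraries and 648, 1515, 314 and 616 in the KO-labelled libraries. All KO-labelled values but 1 lay above the highest control, and the log2 difference was 1.93 ± 0.64 SE (limma adjusted p = 0.278). BNIP3L, a mitophagy receptor, held 493, 514, 685 and 869 in control and 869, 875, 1003 and 1162 in KO-labelled libraries, a difference of 0.64 ± 0.21 (limma adjusted p = 0.274). EGLN1, the main prolyl hydroxylase acting on HIF alpha and itself a HIF target, held 1686, 1801, 2230 and 2057 in control and 2929, 2875, 2980 and 2323 in KO-labelled libraries. The EGLN1 groups did not overlap, and the difference was 0.52 ± 0.16 (limma adjusted p = 0.237). The largest negative differences were PFKFB4, a regulator of phosphofructokinase (-0.63 ± 0.38, limma adjusted p = 0.586), P4HA1, a collagen prolyl hydroxylase (-0.61 ± 0.28, adjusted p = 0.434), and HK1, the first enzyme of glycolysis (-0.61 ± 0.17, adjusted p = 0.204).

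HK1 held 4234, 4526, 4429 and 3724 in control and 3243, 3311, 2545 and 2156 in KO-labelled libraries, without overlap. Groups that did not overlap were seen for 3 of 41 members (7.32%), EGLN1 and BNIP3 above and HK1 below, against 10.6% of all genes (5.11% above and 5.51% below), so the members were near the background. The subunits were not called either: HIF1A differed by -0.14 ± 0.22 (limma adjusted p = 0.879), EPAS1 by 0.01 ± 0.29 (0.995) and ARNT by 0.23 ± 0.23 (0.797). The EPAS1 difference became negative without replicate 1 of control line 1 (-0.06), replicate 1 of control line 2 (-0.08) or replicate 2 of KO-1 (-0.22). The count of 0 also came from edgeR, which called 1.32% of all genes, but DESeq2 called EGLN1 and HK1, and a model with a mean per line called 6 (ANGPTL4, BNIP3, BNIP3L, EGLN1, HK1 and PLIN2). None of these fits, edgeR included, counts the line as the unit. DESeq2 and the mean per line called 6.06% and 10.5% of all genes. A fit on the averages of the lines, which does count the line as the unit, called 0 members. It rested on only 4 averages, which leaves little power for any gene. Its share of all genes is not given here, so this 0 is no result about the members.

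Each KO-labelled line was then set against the mean of the control lines, which both comparisons share. Such a test compares these lines, and differences between any lines, whatever their guide, enter it. In the line labelled KO-1, 4 members were higher and none lower, which was 9.76% of the members against 7.01% of all genes tested (3.82% higher and 3.18% lower), a share near the background. EGLN1 was higher by 0.59 ± 0.13 (limma adjusted p = 0.0309) and ANGPTL4 by 2.52 ± 0.55 (0.0312), on the log2 scale. CA12, the abundant carbonic anhydrase, held 8684, 8764, 8299 and 11154 in control and 15119 and 16307 in KO-1, both above every control, and was higher by 0.78 ± 0.18 (limma adjusted p = 0.0361). NDRG1, a stress-response gene strongly induced by hypoxia, held 6902, 5000, 5377 and 6362 in control and 9575 and 12767 in KO-1, and was higher by 0.92 ± 0.22 (limma adjusted p = 0.0421). None of the 15 glycolysis enzymes was called.

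These calls depended on the model and on single libraries. With the replicate number as a block, 16 members were called, 9 higher and 7 lower, against 24.4% of all genes. The lower ones included HK2, PFKFB4 and P4HA1. None of the 4 calls was left without replicate 1 of control line 1, replicate 1 of KO-1 or replicate 2 of KO-1, and the fit without replicate 1 of KO-1 called CA9 instead. ANGPTL4 alone was left without replicate 2 of control line 1, EGLN1 alone without replicate 1 of control line 2, and ANGPTL4 and CA12 without replicate 2 of control line 2. Leaving out either library of KO-2 kept the 4 and added PFKFB3, PFKFB4, PLIN2 and SLC2A1, for 8. CA12 and NDRG1 also missed the threshold with no filter on low values (adjusted p = 0.0526 and 0.057). The CA9 call rested, for KO-1, on replicate 2 alone, where CA9 had 2 reads (2.07).

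In the line labelled KO-2, 3 members were called, 7.32% against 11.2% of all genes tested (4.54% higher and 6.67% lower), so no more often than genes at large. HK1, at 2545 and 2156, lay below every control library and was lower by 0.85 (log2 difference -0.85 ± 0.12, limma adjusted p = 0.0044). Both mitophagy receptors were higher, BNIP3L by 0.79 ± 0.14 (limma adjusted p = 0.00808) and BNIP3 by 0.51 ± 0.11 (0.0178). BNIP3 held 1159, 1162, 1329 and 1269 in control and 1815 and 1692 in KO-2, without overlap. HK1 and BNIP3L were called without any 1 of the 8 libraries, whereas BNIP3 lost the call without replicate 1 of control line 1 (adjusted p = 0.0647), replicate 2 of control line 1 (0.0634) or replicate 1 of KO-2 (0.0758). Without replicate 2 of KO-2, 5 members were called. With the replicate block there were 13, 6 higher and 7 lower, against 27.4% of all genes, ANGPTL4 and EGLN1 among the higher and P4HA1, VEGFA and KDM3A among the lower.

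The control lines, which were both labelled wild type, differed from each other in 1 member, 2.44% against 2.13% of all genes (1.05% higher and 1.08% lower). PLIN2, a coat protein of lipid droplets, held 6365 and 6077 in control line 1 but 3995 and 3645 in the other control line, and was lower there (log2 difference -0.70 ± 0.14, limma adjusted p = 0.0411). The KO-labelled lines held 6131 to 7215, close to control line 1. The PLIN2 call was lost without any 1 of the libraries of the control lines or of KO-1 (adjusted p = 0.0766 to 0.256) and with no filter on low values (0.0607), and 2 members were called without either library of KO-2. With the replicate block 8 were called, 3 higher and 5 lower, against 12.5% of all genes, GAPDH and TPI1 among the higher and HK2 and CCND1 among the lower. GAPDH, often used as a reference gene, held 51518 and 54935 in control line 1, whereas control line 2 reached 84373 and 93910, so the controls alone spanned a log2 difference of 0.74 ± 0.18 (limma adjusted p = 0.0761 without the block).

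The lines labelled KO-2 and KO-1 were compared directly, with no control library in the difference. There 4 members were called, 9.76% against 6.94% of all genes (2.41% higher and 4.53% lower), and all 4 were lower in KO-2. NDRG1 held 9575 and 12767 in KO-1 and 5890 and 3717 in KO-2, a difference of -1.24 ± 0.25 (limma adjusted p = 0.0269). PFKFB3, which makes the activator of phosphofructokinase, held 3374 and 3491 against 2172 and 1475, a difference of -0.94 ± 0.18 (limma adjusted p = 0.023). KDM3A, a histone demethylase induced by HIF, held 626 and 738 against 338 and 465 (-0.78 ± 0.18, limma adjusted p = 0.0408). SLC2A1, the main glucose transporter, held 11979 and 13050 against 7676 and 8110 (-0.66 ± 0.13, limma adjusted p = 0.0231). In each of the 4 both KO-1 libraries lay above both KO-2 libraries, which the calls themselves made likely, so this adds no support. CA12, with a difference of -0.73 ± 0.20, did not pass (limma adjusted p = 0.0661).

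With the replicate block this comparison called 14 members, 5 higher and 9 lower in KO-2, against 24.5% of all genes. HK2, PFKFB4, BNIP3, ENO2 and CA9 were the higher ones. CA9 had at most 26 reads in any library and 2 in replicate 2 of KO-1, which limits every CA9 call here. In the fit with no block, none of the 4 calls was left without either library of KO-1, and leaving out its replicate 1 called CA9 instead. NDRG1 and PFKFB3 were left without either library of control line 1. KDM3A alone was left without replicate 2 of KO-2, where CA12 was called as well. KDM3A lost its call in 7 of the 8 fits that left out a library (adjusted p = 0.0503 to 0.255), all but the 1 without replicate 2 of KO-2, and with no filter on low values (0.0524).

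**Figure D3:**
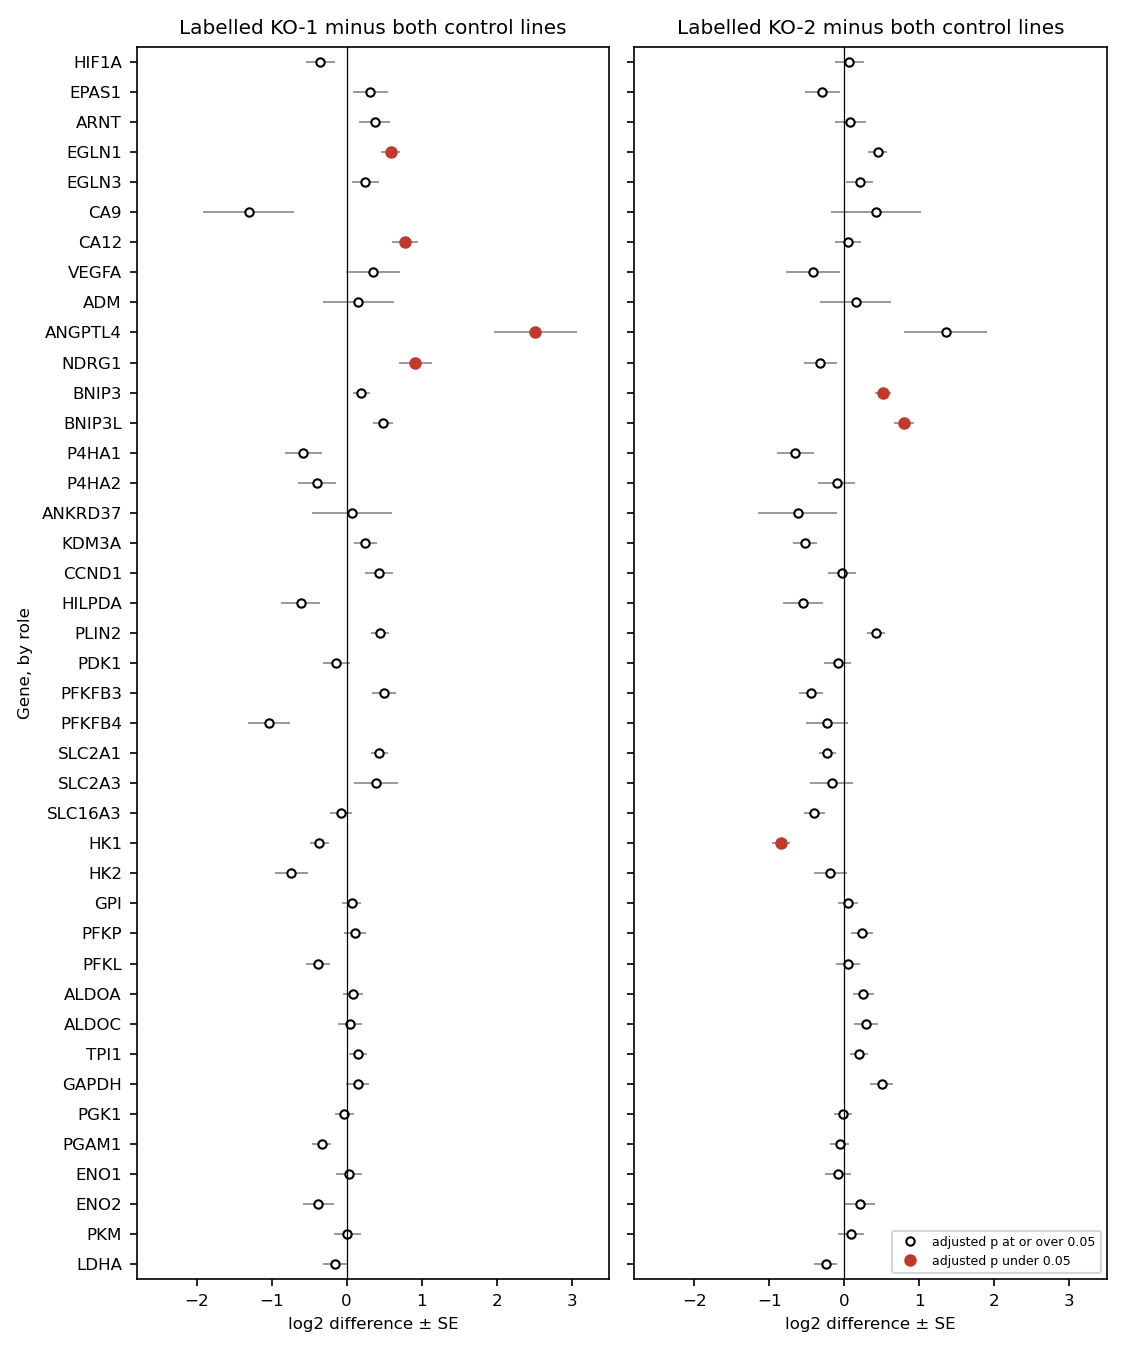
Log2 difference of each member (rows, by role) from the control mean, with the line labelled KO-1 on the left and KO-2 on the right, with bars of 1 SE and filled points for an adjusted p under 0.05. ANGPTL4 in KO-1 lies farthest from 0, at 2.52, and HK1 in KO-2 is the only filled point below 0, at -0.85.

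VEGFA, ADM, ANGPTL4, P4HA1 and P4HA2 were among the members that were higher in replicate 2 of every line. In a model with a mean per line, 9 members were higher in replicate 2 and none lower, 22.0% against 17.6% of all genes (8.97% higher and 8.62% lower). VEGFA, the blood vessel growth factor, went from 3246 to 5641 in control line 1, from 2157 to 4024 in control line 2, from 3395 to 6060 in KO-1 and from 1984 to 3549 in KO-2, so replicate 2 was higher in all 4 lines (log2 difference 0.84 ± 0.07, limma adjusted p = 7.03e-05). ADM, the vasodilator adrenomedullin, held 993, 792, 1078 and 965 in replicate 1 and 1756, 2158, 1994 and 2196 in replicate 2, without overlap (1.08 ± 0.10, limma adjusted p = 0.000163). ANGPTL4 was higher in replicate 2 in every line as well, by 1.20 ± 0.17 (limma adjusted p = 0.0012).

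Both collagen prolyl hydroxylases were higher in replicate 2, P4HA2 by 0.55 ± 0.07 (limma adjusted p = 0.00112) and P4HA1 by 0.48 ± 0.10 (0.00976). So were HK2, the inducible hexokinase (0.43 ± 0.10, limma adjusted p = 0.0116), the transporter SLC2A3 (0.53 ± 0.14, 0.0244) and HILPDA, an inhibitor of lipid droplet lipolysis (0.48 ± 0.13, 0.0275). EPAS1 was higher by 0.41 ± 0.11 (limma adjusted p = 0.0296), but in KO-2 it held 1489 and 1478, so only 3 lines showed it. HK2 was the sole glycolysis enzyme of 15 to be called. Counting lines alone, 14 members (34.1%, against 20.2% of all genes) were higher in replicate 2 in all 4 lines. Another 4 (9.76%, against 19.3%), namely ARNT, GPI, PFKP and PKM, were lower in all 4.

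VEGFA, ADM, P4HA2 and ANGPTL4 were called without any 1 of the 8 libraries. In this model, leaving out either library of a line takes its pair out of the difference, so the 8 fits amount to 4. P4HA1 and HILPDA lost the call without either library of control line 2 or of KO-2 (adjusted p up to 0.0793 and 0.161), and SLC2A3 without any library of control line 2, KO-1 or KO-2 (up to 0.0845). HK2 lost it without either library of control line 1 (up to 0.0649), and EPAS1 without any library of the control lines or KO-1 (up to 0.115). Of the 9 calls, 5 to 7 were kept in these fits, with PFKFB4 added without either library of control line 2 and HIF1A without either library of KO-1. Replicate 2 had the lower depth in all 4 lines, and what else the number stood for is not given in the sources used here. The mitochondrial share was higher in replicate 2 in 3 of 4 lines (6.23% to 13.8%, against 4.67% to 6.43% in replicate 1). Summed fibroblast markers (180 to 1043 in replicate 1, 200.2 to 1434 in replicate 2), kidney markers (81774 to 99159 and 84666 to 128039) and endothelial markers (23.8 to 50.9 and 35.0 to 73.8) were higher in replicate 2 in all 4 lines, and immune markers (1821 to 4300 and 3267 to 4481) in 3. The sum did not stand for each kidney marker: of 10 tested, 6 differences were positive and 4 negative, with 3 called higher. The kidney list also held KRT8, KRT18 and VIM, which are not particular to kidney, and PAX8 was only a small part of the sum. The part of depth and of these quantities in the differences was not tested.

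**Figure D4:**
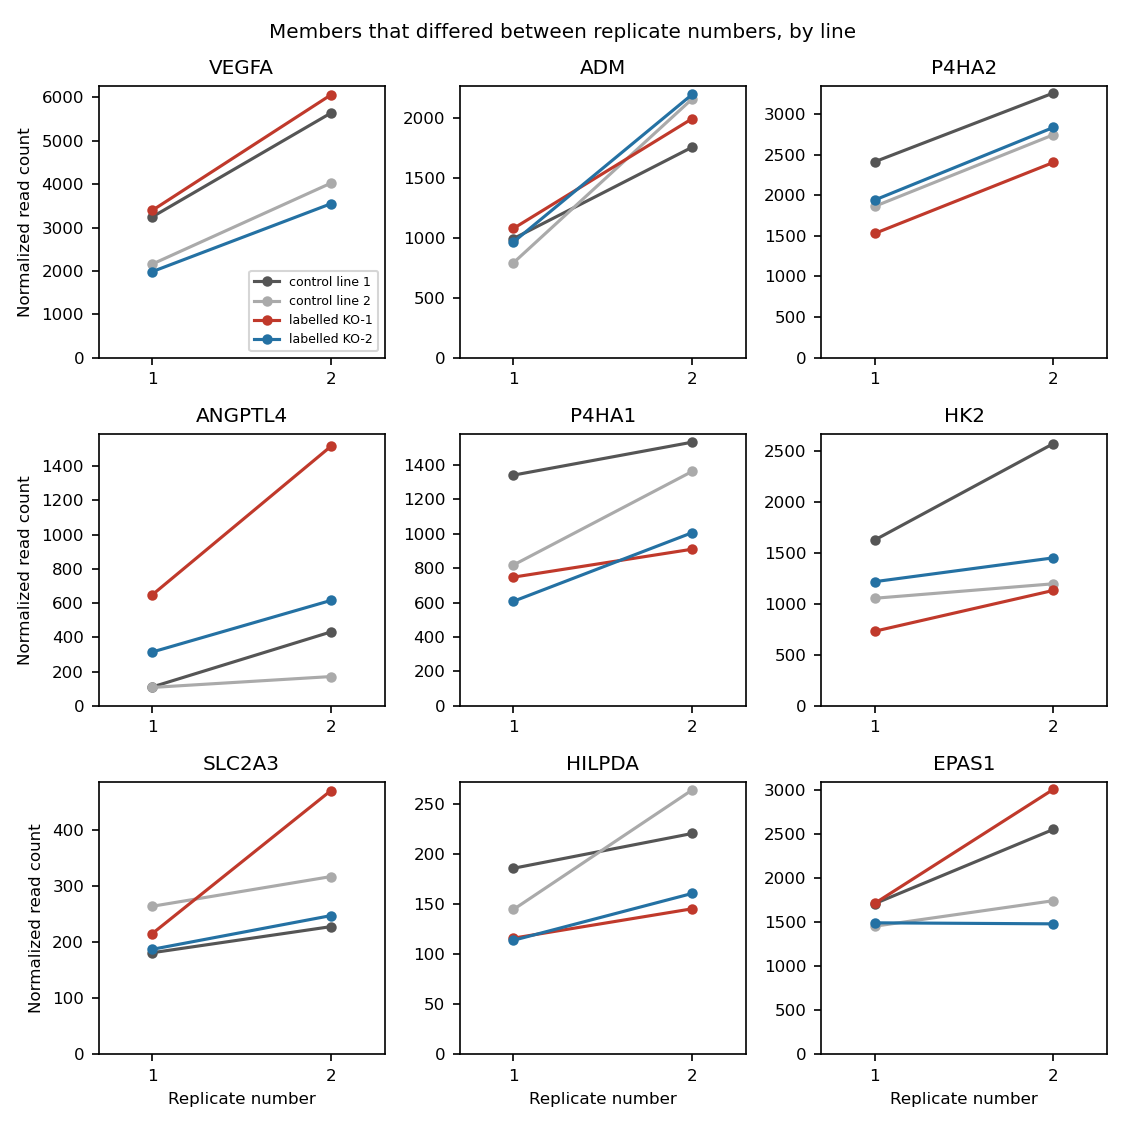
Normalised read count (linear axes from 0) of the 9 members called between replicate numbers, with replicate 1 and replicate 2 of each cell line joined. VEGFA and ADM slope upward in all 4 lines, whereas EPAS1 is flat in the line labelled KO-2.

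Of 87 other genes of HIF regulation, HIF targets, glycolysis, pyruvate dehydrogenase and the pentose phosphate pathway, 75 were abundant enough to be tested. None was called between KO-labelled and control libraries by limma (11, or 14.7%, at an unadjusted p under 0.05, against 11.5% of all genes). In KO-1, 7 were called (9.33%, against 7.01% of all genes), 3 higher and 4 lower. DDIT4, an inhibitor of mTORC1 signalling, held 3224, 3165, 1617 and 1699 in control and 5780 and 6026 in KO-1 (1.36 ± 0.10, limma adjusted p = 0.000385). INSIG2, a brake on sterol synthesis, was higher by 0.87 ± 0.13 (limma adjusted p = 0.00694). The collagen cross-linking enzymes LOX (-2.27 ± 0.39, limma adjusted p = 0.0136) and LOXL2 (-0.93 ± 0.16, 0.0139) were lower. Blocking on the replicate number gave 23 of the 75 (30.7%, against 24.4% of all genes). Without replicate 1 or replicate 2 of KO-1, INSIG2, LOX and LOXL2 did not pass (adjusted p = 0.0658 to 0.139), and neither did LOX (0.0522) and LOXL2 (0.0572) without replicate 2 of control line 1.

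In KO-2, 15 of the 75 were called (20%, against 11.2%), 8 higher and 7 lower. TFRC, the transferrin receptor that imports iron, was lower (-1.32 ± 0.17, limma adjusted p = 0.00279), as were RPIA of the pentose phosphate pathway (-0.83 ± 0.14, 0.00742) and PLOD2, a collagen lysyl hydroxylase (-1.17 ± 0.21, 0.011). DDIT4 was higher, at 3627 and 3804 (0.69 ± 0.10, limma adjusted p = 0.00456). Without replicate 1 of KO-2, PLOD2 did not pass (adjusted p = 0.0538). There were 37 with the replicate block (49.3%, against 27.4% of all genes).

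Between the control lines 3 of the 75 were called (4%, against 2.13%). DDIT4 was lower in control line 2 by 0.95 (log2 difference -0.95 ± 0.12, limma adjusted p = 0.00844). CXCR4, a chemokine receptor, held 186 and 177 in control line 1 against 631 and 1551 in the other (2.44 ± 0.41, limma adjusted p = 0.0273), and PPP1R3C, a glycogen regulator, was higher by 1.35 ± 0.25 (0.0349). Without either library of control line 1 none of the 3 passed (adjusted p = 0.0886 to 0.261). CXCR4 also missed without replicate 2 of control line 2 (0.0772) or either library of KO-1 (0.0574 and 0.057), and PPP1R3C without any library of control line 2 or KO-1 (0.0654 to 0.171) and with no filter on low values (0.0523). The replicate block gave 17 of the 75 (22.7%, against 12.5% of all genes).

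Between the KO-labelled lines 7 of the 75 were called (9.33%, against 6.94%), 2 higher and 5 lower in KO-2. INSIG2 (-0.99 ± 0.15, limma adjusted p = 0.00937), TFRC (-1.15 ± 0.20, 0.0144) and DDIT4 (-0.67 ± 0.12, 0.0163) were lower. FBP1, the gluconeogenic bisphosphatase that opposes phosphofructokinase, held 3.13 and 1.04 in KO-1, 50.7 and 44.7 in KO-2 and 0 to 5.52 in control (KO-2 over KO-1, 4.07 ± 0.84, limma adjusted p = 0.0282). That rested on 1 and 4 reads in KO-1 and 37 and 49 in KO-2. FBP1 reached the filter value of 10 only in KO-2, the line where it was high. Its p-value is therefore no independent support for the difference. FBP1 did not pass with a pseudocount of 0.1 (adjusted p = 0.117), without either library of control line 1 (0.0523 and 0.0504) or without either library of KO-1 (0.0929 and 0.189), and it fell under the filter without either library of KO-2. INSIG2 and DDIT4 did not pass without either library of KO-1 (0.0586 to 0.148), and TFRC did not pass without replicate 2 of KO-1 (0.124) or replicate 2 of KO-2 (0.0623). The block on replicate number gave 29 of the 75 (38.7%, against 24.5% of all genes).

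The replicate comparison called 30 of the 75 (40%), 14 higher and 16 lower in replicate 2. Of all genes, 17.6% were called, 8.97% higher and 8.62% lower. Whether the lists below differed from all genes in direction was not tested. Of the 28 HIF targets among the 75, 10 were higher, including TGFA, a growth factor (0.57 ± 0.08, limma adjusted p = 0.00103), and 3 were lower. Of 13 regulators of HIF, 2 were higher and 5 lower, ARNT2 among the lower (-0.60 ± 0.09, limma adjusted p = 0.00181). PDK2, which inhibits pyruvate dehydrogenase, was lower (-0.95 ± 0.12, limma adjusted p = 0.000801), and PDP1, which activates it, was higher (0.70 ± 0.09, 0.000889). These 4 genes were called without any 1 of the 8 libraries, fits that again amount to leaving out each of the 4 pairs. In these bulk samples, fewer cells expressing a gene and less RNA per cell cannot be told apart, here or in any comparison above.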

How the data were processed

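PolyA RNA-seq libraries of 4 A-498 lines, 2 each, were analysed. Per the submitters' processing notes, fastp 0.23.2, HISAT2 2.2.1, featureCounts 2.0.1 and DESeq2 2.11.40.8 were used with hg38. The deposited signal values were read counts per gene divided by 1 factor per library. Whole reads were recovered from 100% of the values (relative tolerance 1e-08), and the factors matched DESeq2 size factors to 3.12e-10. On these reads edgeR's quasi-likelihood test called 186 genes and DESeq2 850 between KO-labelled and control libraries. Gene symbols and promoters came from RefSeq GRCh38.p14.

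Tests used limma 3.58.1 (R 4.3.3) on log2(value + 1) with a mean-variance trend, so folds of low genes are understated. The 14040 genes that reached a value of 10 in 2 or more libraries were tested, p was two-sided and adjusted by Benjamini-Hochberg over them, and adjusted p under 0.05 was a call. KO against control used all 8 libraries with line as a random block (correlation 0.33). Line contrasts used 1 model with a mean per line. The scripts were tested on simulated data, where the test of KO against control gave slightly more small p-values than its nominal share when lines differed, and the line contrasts called differences between lines as such. That simulation was rebuilt after the results were seen, because the first version had no differences between lines.

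Replicate numbers came from the titles. Differences between replicate 2 and replicate 1 correlated at r = 0.285 to 0.501 in all 6 pairs of lines, so the numbers were taken as paired, and blocked values stand beside the results they changed. Paired libraries of the same line differed beyond sampling noise (chi-square of their reads per degree of freedom 18.8 to 72.3). Alternatives were pseudocounts of 0.1 and 10, no filter, a filter at 50, TMM from edgeR 4.0.16, edgeR, DESeq2 1.42.0, the replicate block, a mean per line, line means and each library left out.

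The members and lists were chosen with earlier results of these data known. Named with values were ANXA4, members called in any comparison (at most 8 each, by adjusted p), HIF1A, EPAS1, ARNT, the 3 largest differences each way between KO-labelled and control libraries, and up to 4 called pathway genes per comparison. EPAS1 in the replicate comparison, CA9, PGK1, GAPDH and the genes named with the replicate block were added after their values were seen. Intervals cover spread between libraries only.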

Additional observations from a re-analysis of the deposited data

Results flagged for a closer look

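In 5 of 82 groups of 4 libraries, 1 library stood far from the other 3, and chance alone gives about 1 in 20. These were the highest KO-labelled value of HIF1A (4416) and of EPAS1 (3004), the lowest KO-labelled value of EGLN1 (2323), and the highest control value of CA12 (11154) and of ENO1 (41536).

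The lines labelled KO-1 and KO-2, which share a labelled genotype, differed by a direct limma test in NDRG1 (log2 difference of KO-2 from KO-1 -1.24), PFKFB3 (-0.94), KDM3A (-0.78) and SLC2A1 (-0.66). ANXA4 was low in KO-1 alone, and its part in these differences was not tested.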

How the results depend on the processing

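Pseudocounts of 0.1 and 10, TMM scaling and a filter at 50 kept every count of called members within 1.5 times its value. Between KO-labelled and control libraries DESeq2 called 2 and a mean per line 6, against 0. In KO-1 (4 calls), no filter gave 2, DESeq2 9 and the replicate block 16. In KO-2 (3), DESeq2 gave 6 and the block 13. Between control lines (1), no filter gave 0, edgeR 2, DESeq2 6 and the block 8. Between KO-2 and KO-1 (4), the block gave 14. Fits that call more members can call more of all genes too. Between KO-labelled and control libraries DESeq2 called 6.06% of all genes, against 0.235% by limma. For the line contrasts the share of all genes is given above for the main fit and the block only. The other counts, those that follow included, are therefore no result about the members. Leaving out each library gave 0 to 0 members between KO-labelled and control libraries, 0 to 8 in KO-1, 2 to 5 in KO-2, 0 to 2 between control lines, 0 to 4 between KO-2 and KO-1, and 6 to 8 between replicate numbers. For the named genes, 670 of 786 gene values kept direction and side of the threshold, 107 lost the call, 6 gained it and 3 reversed. All 3 were EPAS1 between KO-labelled and control libraries, whose leave-one-out values ran from -0.22 to 0.17, with -0.06, -0.08 and -0.22 without replicate 1 of control line 1, replicate 1 of control line 2 and replicate 2 of KO-1. The causes were not tested. Counts of reads limit CA9, ANKRD37 and FBP1.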
